A study of Mus musculus with 2 samples.

Results

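Among the cells of a primary culture of mouse interscapular brown adipose tissue (iBAT) a small group carried transcripts of adiponectin and perilipin 1 and is described here. The cells were chosen by their own counts of unique molecular identifiers (UMIs, 1 per captured RNA molecule). A cell was taken as a member if it held at least 1 UMI of Adipoq, at least 1 of Plin1, at least 6 of Adipoq, Plin1, Cfd and Fabp4 together, and none of Epcam, Ptprc or Pecam1, which mark epithelial, immune and endothelial cells. This gave 85 of the 28215 iBAT cells that passed the cell filter, or 0.301% (95% Clopper-Pearson interval 0.241 to 0.372), out of 57959 filtered cells in the whole series. They were compared with the 25380 iBAT cells that held at least 1 UMI of Pdgfra, the receptor that marks adipose progenitors and fibroblasts, and none of Adipoq or Plin1. These are called comparison cells below.

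The study asked which cells of preadipocyte cultures respond to fibroblast growth factors (FGFs). Stromal vascular cells from pooled iBAT and pooled inguinal white fat (iWAT) of wild-type C57BL/6N mice, 8 to 12 weeks old per the labels, were grown in high-glucose medium to 80% confluency. Cells left untreated and cells kept for 48 h with 5.5 nM of FGF1, FGF2 or FGF8 were marked with 4 sample tags, and 10000 cells of each were merged on a 40000-cell cartridge, 1 library per depot. The published methods list vehicle, FGF1 and FGF2 and not FGF8, and their age range is another one. No adipogenic induction is named for these cultures in the labels. The files used here assign no cell to a tag, so every value is over the 4 treatments together and none describes the effect of an FGF. With 1 library per depot, no test was made and no value has a replicate check. All intervals are at 95% and cover counting error only.

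White and brown adipocytes arise from fibroblast-like progenitors. On differentiation the transcription factors PPARγ and C/EBPα switch on genes for lipid uptake, triglyceride synthesis and the lipid droplet, and the cells begin to secrete adiponectin. Brown adipocytes add mitochondria and uncoupling protein 1, which turns fuel into heat. Adipoq encodes adiponectin, Plin1 the perilipin that coats the lipid droplet, Cfd the secreted protease adipsin and Fabp4 the fatty acid-binding protein of adipocytes.

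The iBAT library held 815235820 UMIs in 28636 barcodes, with a median of 27401 per barcode, and the iWAT library 503611913 UMIs in 29962 barcodes, with a median of 16138. Members were close in depth to comparison cells, with a median of 26490 UMIs and 5581 detected genes per cell against 27804.5 UMIs and 5822 genes. Their mitochondrial share was higher, with a median of 10.5% of UMIs against 6.42%. A total of 8 barcodes occurred in both libraries, and 0 of them belonged to a member.

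The 4 genes that chose the cells varied widely among them. Fabp4 ran from 6 to 1304 UMIs per member with a median of 187, Adipoq from 1 to 536 with a median of 8, and Plin1 from 1 to 70 with a median of 14. Cfd was found in 42 of the 85 members and reached 411 UMIs. The summed UMIs of the 4 genes had a median of 230 and a highest value of 2037, and the 3 lowest members had 10, 11 and 13. The cutoff of 6 therefore removed no cell that had both Adipoq and Plin1. At the lower edge, 13 members rested on 1 Adipoq UMI, 10 on 1 Plin1 UMI and 4 on 1 of each, while 16 members held 100 or more Adipoq UMIs. The members are thus a range from cells with traces of these transcripts to cells in which they were abundant. They were divided at quartiles of the 4 genes' UMIs per 10000 UMIs of the cell, with medians of 17.3, 53.4, 138 and 366 in quartile 1 (22 cells) and quartiles 2, 3 and 4 (21 cells each).

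**Figure D1:**
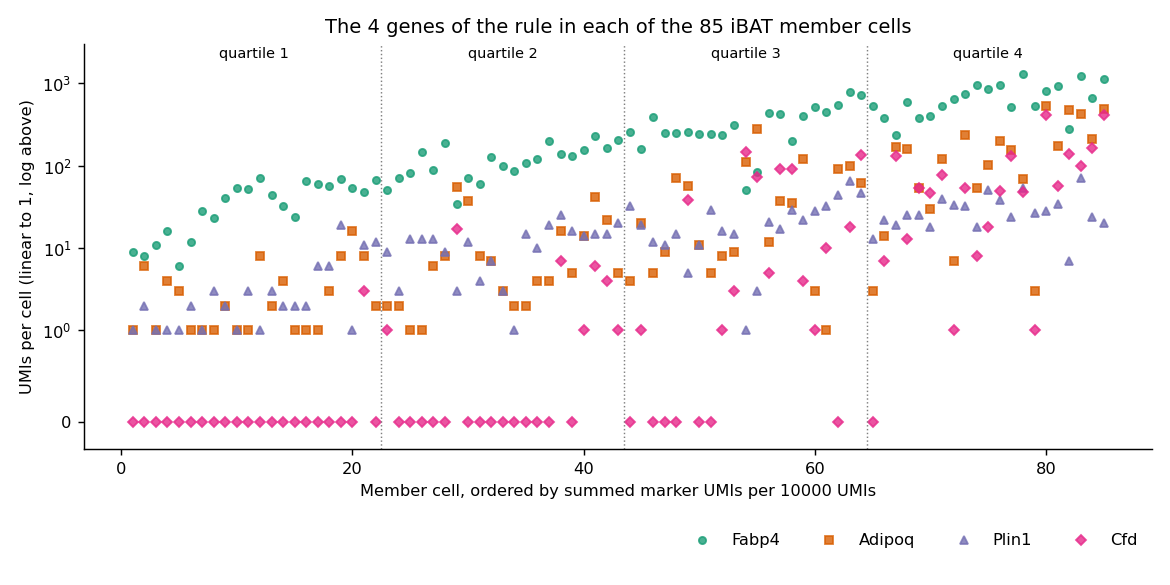
UMIs of Fabp4, Adipoq, Plin1 and Cfd in each of the 85 member cells of the iBAT library, ordered by the summed UMIs of the 4 genes per 10000 UMIs of the cell. The vertical axis is linear up to 1 UMI and logarithmic above, and dotted lines part the quartiles. Fabp4 runs from 6 to 1304 UMIs, and Cfd is at 0 in most cells of quartile 1 and present in 20 of the 21 cells of quartile 4.

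Just outside the rule stood 238 cells with Adipoq and no Plin1 and 271 with Plin1 and no Adipoq. Most of them held few of these molecules. Among the 225 of the former that held no Epcam, Ptprc or Pecam1, 6 held 10 or more Adipoq UMIs, with a highest value of 62. Among the 258 such cells of the latter, 4 held 10 or more Plin1 UMIs, with a highest value of 33. One further cell, with 1 Adipoq, 10 Plin1 and 51 Fabp4 UMIs, was left out for 1 UMI of Pecam1. Another 4 barcodes met the rule but had been removed by the cell filter. Pdgfra itself was not used to choose members, and 66 of the 85 held it.

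Members made up 0.304% of the UMIs of the filtered library but held 92.0% of its Adipoq, 87.9% of its Cfd and 74.9% of its Plin1 UMIs, as the rule itself favours. Of its Fabp4 UMIs they held 25.1%, so most of that transcript lay outside the members. Some genes the rule did not use were gathered in them too. Members held 90.2% of the library's UMIs of Ffar2, a short-chain fatty acid receptor, 89.1% of Lgals12, a lipid droplet-associated galectin, 88.4% of the lipid droplet gene Cidec and 75.8% of the carbonic anhydrase gene Car3. These were picked for their high shares, and Ffar2 and Cidec had only 102 and 86 UMIs in the library. Many other adipocyte genes lay mostly outside the members, which held 21.1% of Scd1, 8.44% of Lpl, 5.00% of Pparg and 3.60% of Cebpa UMIs.

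In GRCm39, with the GENCODE M39 annotation, Adipoq (ENSMUSG00000022878) lies at chr16:22964106-22976810. The 250 bases before the start site of the canonical transcript are shown for this gene of the rule, for Lgals12 and Gpd1, which are among the 10 genes that stood highest in members, and for Mmp3, which is among the 10 that stood lowest. All lie upstream of the first exon of that transcript, overlap no annotated exon and are written 5′ to 3′ on the gene's own strand. Capitals mark matches, on either strand, to 5 motifs: the nuclear receptor half-site AGGTCA, its direct repeat AGGTCANAGGTCA, the C/EBP core TTGCNNAA, the TATA box TATAAA and the CCAAT box. The windows are chr16:22965036-22965285 for Adipoq (plus strand), chr19:7584569-7584818 for Lgals12 (minus strand), chr15:99615146-99615395 for Gpd1 (plus strand) and chr9:7445572-7445821 for Mmp3 (plus strand).
Adipoq: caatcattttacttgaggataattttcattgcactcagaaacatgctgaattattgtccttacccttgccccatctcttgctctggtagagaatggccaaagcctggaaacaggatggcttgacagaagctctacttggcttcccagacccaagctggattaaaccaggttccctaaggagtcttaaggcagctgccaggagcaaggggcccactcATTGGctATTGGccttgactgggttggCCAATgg
Lgals12: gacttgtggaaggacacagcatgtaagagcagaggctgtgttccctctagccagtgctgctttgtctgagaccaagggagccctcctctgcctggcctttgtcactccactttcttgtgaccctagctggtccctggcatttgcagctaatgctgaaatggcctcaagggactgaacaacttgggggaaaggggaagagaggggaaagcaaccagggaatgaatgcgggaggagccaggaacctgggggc
Gpd1: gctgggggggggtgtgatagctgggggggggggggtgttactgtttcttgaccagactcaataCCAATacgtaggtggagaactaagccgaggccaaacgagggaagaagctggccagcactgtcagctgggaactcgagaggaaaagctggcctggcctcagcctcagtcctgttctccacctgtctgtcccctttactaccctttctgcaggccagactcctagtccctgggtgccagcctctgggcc
Mmp3: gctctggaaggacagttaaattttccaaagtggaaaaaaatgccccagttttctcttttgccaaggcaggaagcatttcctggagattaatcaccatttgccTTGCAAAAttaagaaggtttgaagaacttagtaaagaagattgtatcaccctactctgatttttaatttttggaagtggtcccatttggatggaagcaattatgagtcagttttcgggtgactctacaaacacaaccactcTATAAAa

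The Adipoq window held 3 CCAAT matches, which began 34, 27 and 7 bases before the start site. The Gpd1 window held 1 CCAAT match 187 bases before the start and the Lgals12 window none of the 5 motifs. In the Mmp3 window a C/EBP core began 148 bases and a TATA box 7 bases before the start. Such matches are common. Of 21751 protein-coding promoters of this length, 13.1% held the half-site, 9.34% the C/EBP core, 11.9% the TATA box and 36.5% CCAAT, and 8 promoters (0.0368%) held the direct repeat. Among the 411 genes at least 2-fold higher in members that had a promoter window, the shares were 11.4%, 9.98%, 8.76% and 37.7%, and 0 held the direct repeat.

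Members and comparison cells were compared by the UMIs of a gene summed over the cells of a group and given per 1000000 UMIs of that group (CPM). Of 3995 genes with at least 50 CPM in either group, the rule genes left out, 416 were at least 2-fold higher in members (10.4%) and 353 at least 2-fold lower (8.84%). At 4-fold or more the counts were 186 and 51, and at 10-fold or more 83 and 3. Differences of 4-fold or more thus lay mostly on the higher side, but this leans on the limit. A gene near 0 in comparison cells could pass 50 CPM only by its level in members, so these counts are a description. Without quartile 1 of members, as given further below, the lower count at 2-fold was slightly the larger. The median log2 ratio over these genes was -0.14. The gene lists below used a lower limit of 5 CPM in either group. A gene low in comparison cells could pass it only by its level in members, so the counts and medians of the lists lean on this limit and are descriptions. Of the 10871 genes past it, 1068 were at least 2-fold higher (9.82%) and 1118 at least 2-fold lower (10.3%), with a median log2 ratio of -0.09.

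Among the 10 genes furthest toward members were Lgals12, Car3, Wfdc21, Adig, Aqp7, Lrg1, Lcn2, Gpd1 and Rasd1. Lgals12 stood at 51.1 CPM (42.5 to 61.0) in members against 0.0151 CPM in comparison cells, a ratio of 3380 (1824 to 6948), and was found in 40 members. Adig, which encodes the adipocyte protein adipogenin, stood at 94.0 against 0.0619 CPM. Both are known from adipocytes and are close to absent from the comparison cells. The secreted Wfdc21 (533 against 0.289 CPM), Lrg1 (479 against 0.553 CPM) and Lcn2 (151 against 0.238 CPM) were found in 62, 69 and 42 members. Rasd1, a Ras-like GTPase, stood at 51.1 against 0.191 CPM.

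**Figure D2:**
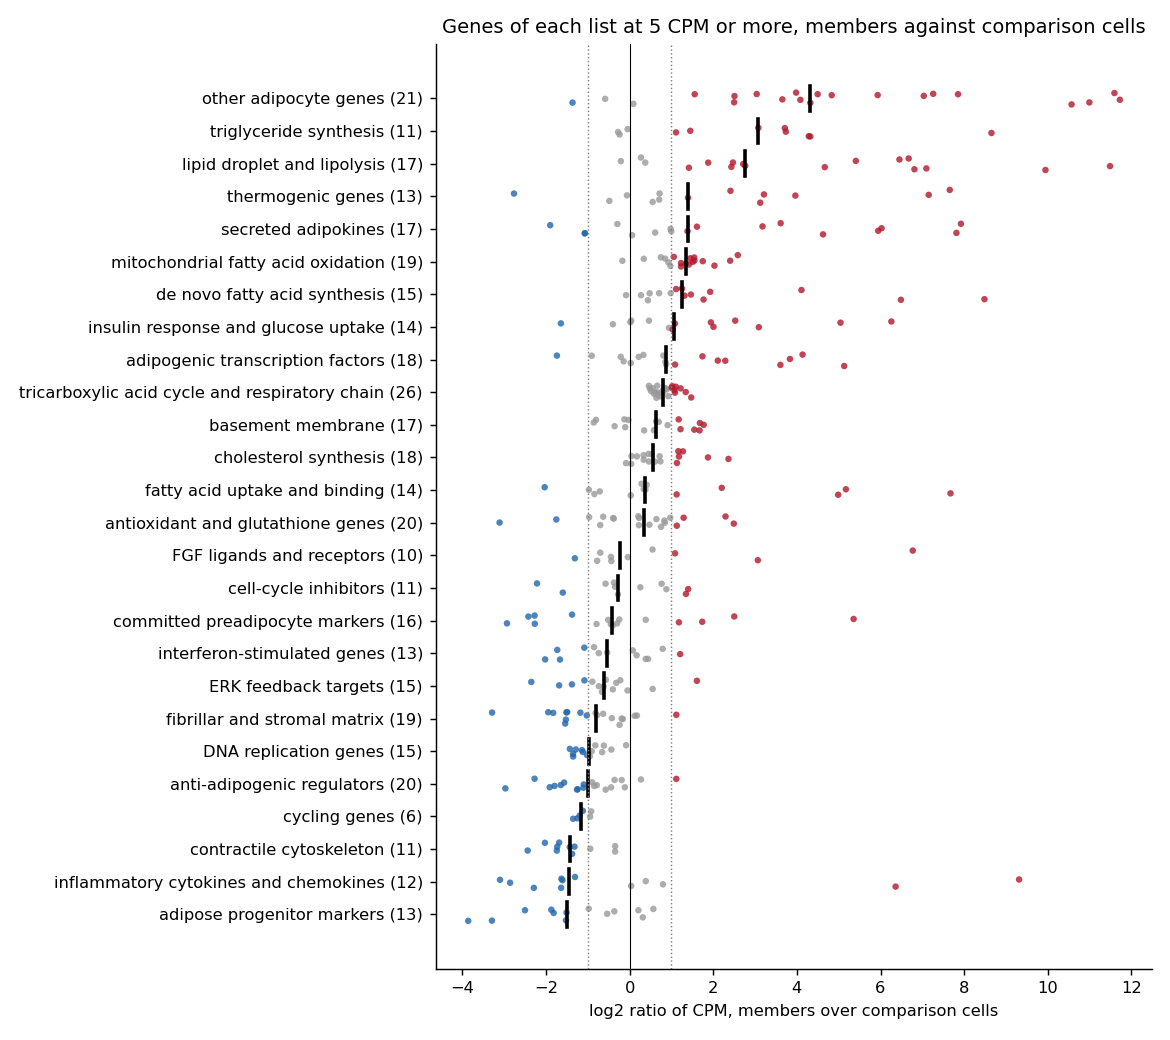
log2 ratio of CPM, members over comparison cells, for each gene of 26 lists with at least 5 CPM in either group. Each point is a gene, the black bar is the list's median, the number after a list's name is its count of plotted genes, and dotted lines mark 2-fold. Other adipocyte genes have a median of 4.32 and adipose progenitor markers one of -1.51. Genes low in comparison cells enter only by their level in members, which largely sets the former median.

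Regulators of adipogenesis were divided between genes higher in members and genes within 2-fold. Of the 18 measured transcription factors of this list, 8 were at least 2-fold higher, 9 within 2-fold and 1 lower, with a median log2 ratio of 0.86. Pparg, the receptor that drives adipocyte differentiation, stood at 508 CPM (480 to 538) against 28.9 CPM, 17.6-fold higher (16.6 to 18.6), and was found in 82 of 85 members. Its partner Cebpa stood at 809 against 66.5 CPM, 12.2-fold higher (11.6 to 12.7), and was found in all 85. The lipogenic factors Srebf1 (152 against 31.1 CPM) and Mlxipl (11.2 against 0.320 CPM) and the oxysterol receptor Nr1h3 (32.8 against 2.30 CPM) were higher too. So were Zfp423 (27.0 against 6.27 CPM) and Stat5a (28.3 against 8.46 CPM). Cebpb stood at 238 against 276 CPM and Cebpd at 102 against 191 CPM, and Klf5 was the list gene at least 2-fold lower, with 4.16 against 13.9 CPM.

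Genes of the lipid droplet and of lipolysis were mostly higher. Of 17 genes, 14 were at least 2-fold higher and 0 lower, with a median log2 ratio of 2.76. The triglyceride lipase Pnpla2 stood at 589 against 13.9 CPM, 42.5-fold higher (40.2 to 44.9), and its inhibitor G0s2 at 476 against 5.43 CPM. The hormone-sensitive lipase Lipe stood at 124 against 1.21 CPM, 102-fold higher (89.2 to 116), and the droplet protein Plin4 at 163 against 1.19 CPM. Enzymes and inhibitor of lipolysis were thus both higher. Cidec, which lets lipid droplets fuse, stood at 31.6 CPM in members, from 29 cells, against 0.0110 CPM. The glycerol channel Aqp7 stood at 84.0 against 0.0853 CPM, 985-fold higher (738 to 1331).

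In fatty acid uptake and binding most genes did not pass 2-fold, with 5 of 14 higher, 8 within 2-fold and 1 lower and a median log2 ratio of 0.36. Lpl, the lipase that frees fatty acids from lipoproteins, was present in every member with 36 to 1270 UMIs and a median of 232, and all 85 exceeded the median comparison cell per 10000 UMIs. It stood at 9696 CPM against 306 CPM, 31.7-fold higher (31.3 to 32.1). The fatty acid transporter Cd36 stood at 1547 against 7.58 CPM and was found in 79 members, and it also stood at 1307 CPM in the 296 cells of the library with a Ptprc UMI. Of 11 genes of triglyceride synthesis, 8 were higher and 0 lower, with a median log2 ratio of 3.08. Among them were the glycerol-3-phosphate acyltransferase Gpam (321 against 16.5 CPM), Agpat2 (211 against 15.8 CPM) and the final acyltransferases Dgat1 (156 against 11.9 CPM) and Dgat2 (109 against 5.48 CPM). Gpd1, which makes glycerol 3-phosphate, stood at 76.9 against 0.191 CPM.

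In de novo fatty acid synthesis 9 of 15 genes were higher and 0 lower, with a median log2 ratio of 1.25. Scd1, the stearoyl-CoA desaturase, had 0 to 1849 UMIs per member with a median of 148 and stood at 12951 CPM (12808 to 13096) against 144 CPM, 89.7-fold higher (88.5 to 90.8). In 36 members its level per 10000 UMIs exceeded that of every comparison cell. The pyruvate carboxylase Pcx stood at 164 against 9.52 CPM and the lipogenic Thrsp at 13.3 against 0.0371 CPM. The core enzymes differed less. Fasn stood at 75.7 against 30.5 CPM, 2.48-fold higher (2.14 to 2.87), Acaca at 64.9 against 19.1 CPM, and the citrate lyase Acly at 130 against 93.1 CPM, within 2-fold. In cholesterol synthesis 6 of 18 genes were higher and 0 lower, with Insig1, a sterol-sensing regulator, at 569 against 111 CPM.

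Insulin response genes were higher in 8 of 14 cases and lower in 1, with a median log2 ratio of 1.06. The insulin-regulated glucose transporter Slc2a4 was low, at 9.56 against 0.290 CPM from 16 members. Trarg1, a regulator of that transporter's traffic, stood at 66.1 against 0.864 CPM and the insulin receptor Insr at 46.6 against 12.1 CPM. The receptor substrate Irs2 stood at 76.1 against 13.2 CPM, while Enpp1 was lower at 9.98 against 31.2 CPM.

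Secreted factors of adipocytes were mixed, with 9 of 17 genes higher and 3 lower and a median log2 ratio of 1.38. Angiotensinogen (Agt) stood at 341 against 5.55 CPM, 61.5-fold higher (57.0 to 66.3), resistin (Retn) at 55.7 against 0.230 CPM and the retinol carrier Rbp4 at 109 against 4.42 CPM. Igf1 stood at 278 against 22.8 CPM. Leptin (Lep) had 1 UMI in all members together. The 3 lower genes were Angptl2, Adm and Metrnl, with 95.6, 49.1 and 22.5 CPM in members against 201, 103 and 83.8 CPM. Other genes known from adipocytes were higher in 18 of 21 cases and lower in 1, with a median log2 ratio of 4.32. Adig, Car3, Adrb3, Ffar2 and Lgals12, among others of these, passed the limit of 5 CPM only by their level in members. This count and median are thus largely set by that limit. The β3-adrenergic receptor Adrb3, through which catecholamines act on adipocytes, stood at 282 CPM (261 to 304) against 1.22 CPM, 231-fold higher (209 to 256), and was found in 48 members. The adiponectin receptor Adipor2 stood at 760 against 60.5 CPM and apolipoprotein E (Apoe), of the list of committed preadipocyte markers, at 1768 against 43.2 CPM.

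Car3, the carbonic anhydrase abundant in muscle and fat, was found in few members. Its 1471 UMIs came from 17 members, 10 of which held between 14 and 313 UMIs, and 1 cell held 21.3% of them. Its level over all members was 612 against 0.300 CPM, 2040-fold higher (1768 to 2362). The 43 members of quartiles 1 and 2 had 0 Car3 UMIs. Of the 17 members with Car3, 16 also held Cfd. Cfd, which entered the quartile split, was found in 14 of 21 cells of quartile 3 and 20 of 21 of quartile 4. No link between Car3 and Cfd was therefore read.

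Thermogenic genes were divided, with no UMI of Ucp1 in members. Ucp1, the uncoupling protein of brown adipocytes, had 0 UMIs in members, or 0 of 85 cells, which allows a share of cells with a UMI of up to 3.53% by 3 counts of the total and 4.25% by the exact interval, and stood at 0.337 CPM in comparison cells. After thinning each cell to 10000 UMIs, 0.327% of comparison cells held a Ucp1 UMI (0.261 to 0.405). Of the 296 cells with a Ptprc UMI 0.676% did (0.0819 to 2.42), at a median depth of 24951.5 UMIs. These cells served as a background class, but 156 of them held Pdgfra and 4 held Plin1, so they cannot be taken as a pure immune class. A Ucp1 level equal to that of the other cells was therefore not detectable in 85 cells. Cidea, Elovl3, Cpt1b and Bmp8b were at 0 UMIs in members as well. Of the 13 measured genes of this list, 7 were higher and 1 was lower, with a median log2 ratio of 1.39. Of these 7, Kcnk3, Slc36a2, Ppargc1a, Ppargc1b and Cox7a1 passed the limit of 5 CPM by their level in members, and 12 of the 25 genes of the list, with the 5 at 0 in members among them, did not pass it, so this count and median are largely set by the limit. The potassium channel Kcnk3 stood at 75.7 against 0.532 CPM, 142-fold higher (119 to 170), and the amino acid transporter Slc36a2 at 81.5 against 0.404 CPM, 202-fold higher (167 to 242). Both are known from brown adipocytes. The coactivator Ppargc1a stood at 15.0 against 0.960 CPM, Ppargc1b at 19.5 against 2.24 CPM and the muscle-type oxidase subunit Cox7a1 at 28.3 against 3.05 CPM. Dio2, which activates thyroid hormone, had 3 UMIs and stood at 1.25 against 8.48 CPM, 6.80-fold lower (2.32 to 33.0). The brown lineage factors Zic1 (18.7 against 19.6 CPM) and Ebf2 (53.6 against 52.7 CPM) did not differ beyond counting error over all members, but the members were unlike each other. Ebf2 stood at 69.0, 73.0, 58.3 and 12.2 CPM from quartile 1 to quartile 4, the last from 7 UMIs, and Zic1 at 33.7, 12.5, 19.4 and 6.97 CPM, the last from 4 UMIs. Lhx8, another transcription factor of this list, was among the 7 higher genes, from 92 UMIs in members. It had 19, 26, 27 and 20 UMIs from quartile 1 to quartile 4. Prdm16 stood at 8.73 against 5.32 CPM, a ratio of 1.64 (1.02 to 2.51).

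The lists of mitochondrial fuel use differed in how many genes passed 2-fold. In fatty acid oxidation 13 of 19 genes were higher and 0 lower, with a median log2 ratio of 1.35. The medium-chain dehydrogenase Acadm stood at 382 against 63.7 CPM, 6.01-fold higher (5.62 to 6.41), and Acadl at 278 against 95.3 CPM. In the tricarboxylic acid cycle and respiratory chain, encoded in the nucleus, 8 of 26 genes were higher, 18 within 2-fold and 0 lower, with a median of 0.79 and Cox4i1 at 582 against 290 CPM. Beside these stands the mitochondrial share of UMIs given above, and its part in the result was not tested.

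**Figure D3:**
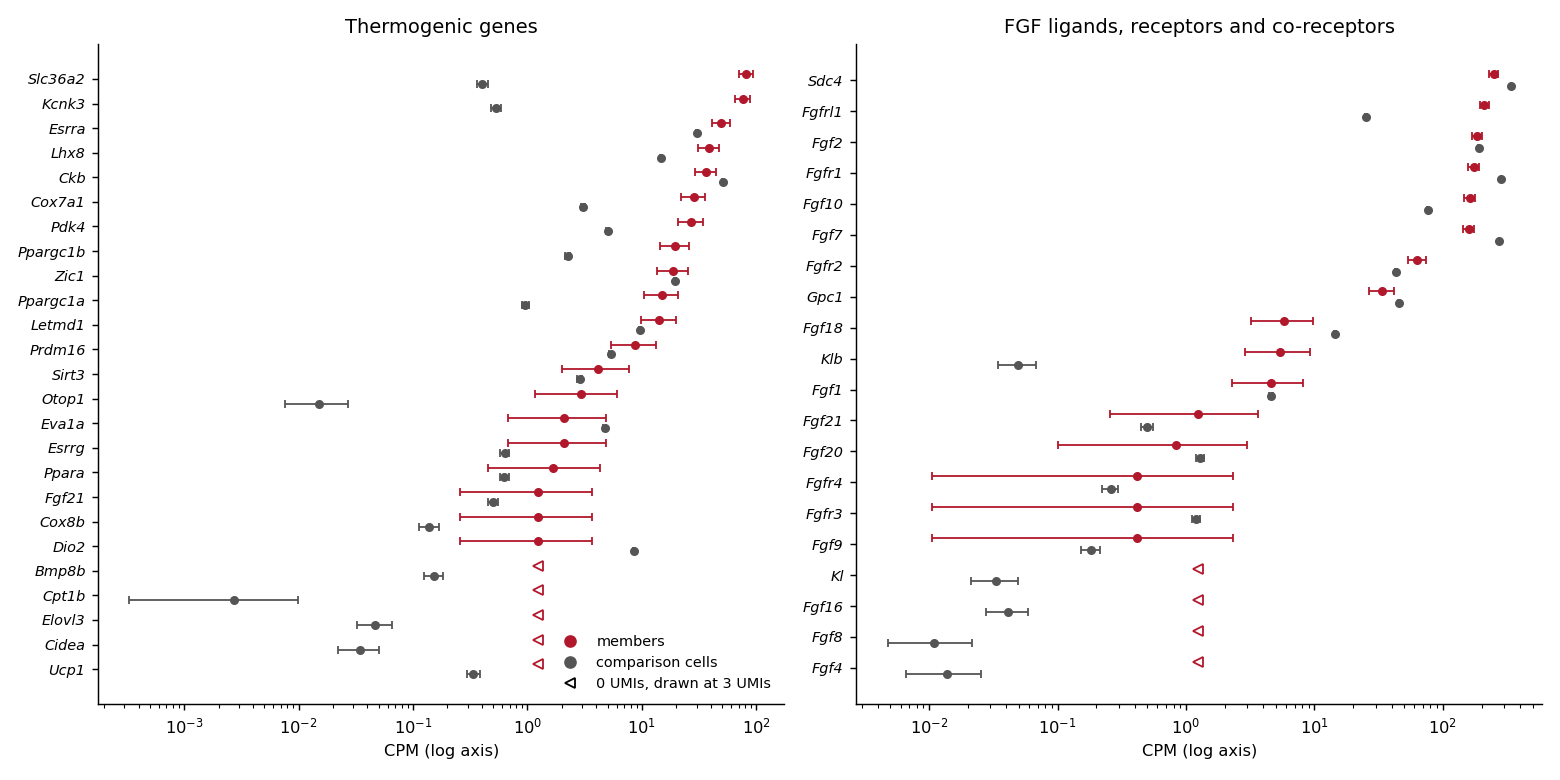
CPM of the thermogenic genes (left) and of FGF ligands, receptors and co-receptors (right) in the 85 members (red) and the 25380 comparison cells (grey), on a log axis, with exact Poisson intervals as bars. Open triangles stand for 0 UMIs and are drawn at the level of 3 UMIs. Kcnk3 and Slc36a2 lie at 75.7 and 81.5 CPM in members, and Ucp1 has no UMI in them. Over all members the 2 groups lie together for Fgf2 and for Fgf1, which has 11 UMIs in members.

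FGF ligands and receptors were measured because the cultures had received FGFs. Of 10 genes past the limit, 3 were higher and 1 was lower, with a median log2 ratio of -0.24. Fgf2 stood at 184 CPM (167 to 202) in members and 190 CPM in comparison cells. Fgf1 stood at 4.57 CPM in both, from only 11 UMIs in members. Neither ligand differed beyond counting error over all members, and for Fgf1 that error is wide. Within members Fgf2 was not even, with 261, 221, 141 and 108 CPM from quartile 1 to quartile 4, and 16 of 22 cells of quartile 1 but 6 of 21 of quartile 4 exceeded the median comparison cell per 10000 UMIs. Fgf8 had 0 UMIs in members and stood at 0.0110 CPM in comparison cells. Fgf4 and Fgf16 had 0 UMIs in members as well, Fgf9 had 1 and Fgf20 had 2. Fgf10, a ligand made by fat stroma, was higher at 162 against 76.4 CPM, 2.12-fold (1.92 to 2.34). It was at 158, 281, 102 and 115 CPM in quartiles 1 to 4 and at 123 CPM in the comparison cells with at least 6 Fabp4 UMIs. Fgf7 stood at 159 against 273 CPM and Fgf18 at 5.82 against 14.4 CPM. Among the receptors, Fgfr1 stood at 173 CPM (157 to 191) against 282 CPM, 1.63-fold lower (1.48 to 1.80), and Fgfr2 at 63.2 against 43.2 CPM. Fgfr3 and Fgfr4 had 1 UMI each in members. Fgfrl1, a receptor that lacks the kinase domain, was 8.37-fold higher (7.65 to 9.14) at 211 against 25.2 CPM and was found in 82 members. The co-receptor β-klotho (Klb), which endocrine FGFs need, stood at 5.40 against 0.0495 CPM from 11 members. Feedback targets of ERK, the kinase downstream of these receptors, were higher in 1 and lower in 4 of 15 cases, with a median of -0.62. Spry4 was the one higher, at 122 against 40.1 CPM, and the phosphatases Dusp5 (16.6 against 84.8 CPM) and Dusp6 (33.3 against 70.4 CPM) were among the lower.

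On the other side stood genes of progenitors, of stromal matrix and of contractile fibroblasts. Of 13 adipose progenitor markers 0 were higher and 7 lower, with a median log2 ratio of -1.51. Thy1 stood at 159 against 902 CPM, 5.67-fold lower (5.13 to 6.28), Ly6a at 243 against 699 CPM and Cd34 at 2.91 against 28.5 CPM. Committed preadipocyte markers were divided, with 4 of 16 higher and 5 lower. Dlk1, a preadipocyte factor that is lost on differentiation, stood at 13.3 against 64.3 CPM. Of 20 anti-adipogenic regulators 1 was higher and 10 were lower, with a median of -0.997, among them Sox9 (42.0 against 158 CPM), Ccn2 (267 against 837 CPM) and Inhba, a subunit of activin, which stood at 56.5 against 444 CPM, 7.85-fold lower (6.64 to 9.36).

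Fibrillar and stromal matrix genes were higher in 1 and lower in 9 of 19 cases, with a median log2 ratio of -0.81. Col1a1 stood at 2228 against 6271 CPM, 2.81-fold lower (2.74 to 2.89), and Col1a2 at 1707 against 3863 CPM. Dcn was the one higher over all members, at 242 against 112 CPM. It stood at 370, 347, 206 and 33.1 CPM from quartile 1 to quartile 4, so that its level in quartile 4 was below that of the comparison cells. Sparc was close to even at 6619 against 6090 CPM. In the basement membrane, which surrounds each adipocyte, most genes did not pass 2-fold. Of 17 genes 6 were higher, 11 within 2-fold and 0 lower, with a median of 0.63. Nid1, Lama2, Col4a5 and Sdc2 were among those that leaned lower within 2-fold. Col6a1 stood at 805 against 251 CPM, Col6a2 at 544 against 159 CPM and Col15a1 at 562 against 176 CPM. Col4a1, at 1460 against 901 CPM, was within 2-fold. In the contractile cytoskeleton 0 of 11 genes were higher and 8 lower, with a median of -1.43, Acta2 at 603 against 2016 CPM and Tagln at 348 against 1121 CPM.

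The 10 genes furthest toward the comparison cells were Serpinb2, Mmp3, Cck, Ptgs2, Akr1c18, Inhba, Igfbp5, Il1rl1, Prkg2 and Plac8. Mmp3, a matrix-degrading protease, stood at 14.6 CPM (10.1 to 20.2) against 331 CPM, 22.8-fold lower (16.4 to 32.7). The peptide gene Cck stood at 37.0 against 396 CPM, and Serpinb2 at 2.49 CPM, from 6 UMIs, against 60.3 CPM. Ptgs2, the inducible cyclooxygenase, stood at 11.2 against 96.2 CPM. The members were unlike each other for the interleukin-33 receptor Il1rl1 and for Plac8, since 1 cell held 42.3% of the members' Il1rl1 and 1 cell 48.6% of their Plac8 UMIs. Of 12 measured inflammatory cytokines and chemokines 2 were higher, Lcn2 and Saa3, and 7 lower, with a median of -1.46. Il6 leaned higher but within 2-fold, from 114 UMIs in members. It had 58, 54, 2 and 0 UMIs from quartile 1 to quartile 4. Csf1, the macrophage growth factor, stood at 740 against 2256 CPM and Ccl2 at 285 against 886 CPM. Of 13 interferon-stimulated genes 1 was higher (Ifi27, 202 against 87.5 CPM) and 4 were lower, with a median of -0.54. The summed level of all 20 genes of that list, Ifi27 included, leaned the other way, at 354 against 270 CPM.

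Cycling transcripts were fewer in members. Of 6 cycling genes 0 were higher and 4 lower, with a median log2 ratio of -1.16, and of 15 DNA replication genes 0 were higher and 7 lower. Top2a stood at 124 against 235 CPM and Ube2c at 123 against 314 CPM. After thinning to 10000 UMIs per cell, with no cell left out as too shallow, 49 of 85 members (57.6%, 46.4 to 68.3) held a UMI of the cycling list against 83.2% of comparison cells (82.7 to 83.6) and 85.1% of the cells with Ptprc. Unthinned, the shares in members and comparison cells were 84.7% and 94.7%. Single UMIs of these transcripts can come from free RNA, so the shares are not counts of dividing cells. Of 11 cell-cycle inhibitors 2 were higher and 2 lower, with Cdkn1a at 372 against 312 CPM.

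Markers of other cell types were checked over their whole lists, with the rule genes left out. Members had to hold no UMI of Epcam, Ptprc or Pecam1, while comparison cells could hold them. Lower immune, endothelial and epithelial sums in members were thus partly set by the rule. Of 9 immune markers 6 were at 0 in members, and the list summed to 25.4 CPM against 78.6 CPM in comparison cells, with 19.2 to 30.2 CPM in the 4 quartiles. Of 8 endothelial markers 3 were at 0 (6.24 against 22.4 CPM summed, 1.74 to 10.7 over quartiles), and of 8 epithelial markers 7 were at 0 (2.08 against 17.7 CPM, 1.53 to 3.24). Skeletal muscle markers summed to 5.40 against 57.4 CPM, with 4 of 9 at 0, and Schwann markers to 10.4 against 21.6 CPM, with 3 of 8 at 0. Mural markers were the exception, with 176 against 71.0 CPM, 1 of 7 at 0 and 138, 146, 178 and 247 CPM in quartiles 1 to 4. That sum was carried by Abcc9 (105 against 6.70 CPM) and Mcam (37.8 against 14.2 CPM, with 6.14 CPM in quartile 1 and 106 CPM in quartile 4), while Rgs5, a defining pericyte gene, had 2 UMIs in members (0.831 CPM) and 3.05 CPM in comparison cells, and Higd1b was the marker at 0.

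Levels of genes outside the rule were then followed over the quartiles. The split used UMIs of the 4 rule genes, so the values are given as a description. Of 4125 genes with at least 50 CPM in quartile 1 or quartile 4, 532 were at least 2-fold higher in quartile 4 (12.9%) and 952 at least 2-fold lower (23.1%). Scd1 stood at 2310, 6224, 14969 and 29450 CPM from quartile 1 to quartile 4, with 833 of the 1506 UMIs of quartile 1 in 1 cell, and medians per cell of 2.42, 50.4, 135 and 314 UMIs per 10000. Pnpla2 stood at 29.1, 137, 634 and 1618 CPM. Adrb3 stood at 4.60, 62.3, 342 and 749 CPM, and Apoe at 525, 1409, 2155 and 3116 CPM. Lpl was high from the start, with 5961, 9562, 9842 and 13913 CPM. Pparg was highest in quartile 3 (256, 427, 783 and 580 CPM), and Cebpa stood at 442, 836, 966 and 1029 CPM. The regulators and Lpl thus differed less between quartiles 1 and 4 than Scd1, Pnpla2 and Adrb3 did.

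Other genes, of the stroma and the cell cycle, went down over the same quartiles. Col1a1 stood at 3793, 3219, 1483 and 284 CPM, Csf1 at 1552, 781, 452 and 88.8 CPM and Pdgfra at 281, 155, 104 and 27.9 CPM. Pdgfra was found in 22 of 22 cells of quartile 1 and 9 of 21 of quartile 4. Comparison cells, which were chosen for Pdgfra, stood at 284 CPM. Top2a stood at 262, 97.9, 110 and 8.71 CPM, and the thinned share of cells with a cycling UMI was 77.3%, 66.7%, 57.1% and 28.6%. The summed cycling list stood at 1218, 463, 433 and 50.5 CPM. Fgfr1 stood at 212, 180, 183 and 113 CPM, and Fgf7 at 310, 169, 117 and 24.4 CPM. Not every gene of the stroma went down with them. The summed basement membrane list stood at 6411, 7176, 6938 and 6351 CPM.

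**Figure D4:**
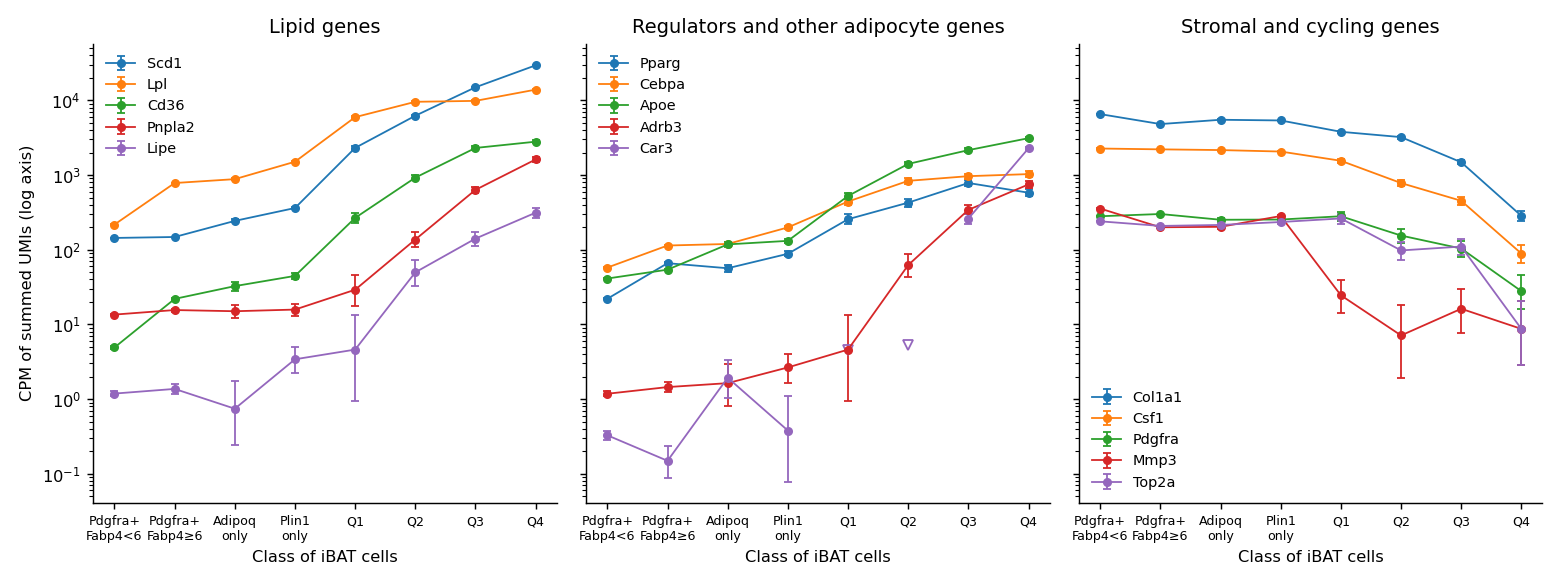
CPM of summed UMIs, on a log axis, of 5 lipid genes, 5 regulators and other adipocyte genes and 5 stromal and cycling genes in 8 classes of iBAT cells: comparison cells with fewer than 6 or with at least 6 Fabp4 UMIs, cells with Adipoq or Plin1 alone, and the 4 quartiles (Q1 to Q4) of members. Bars are exact Poisson intervals and open triangles stand for 0 UMIs, drawn at 3 UMIs. Scd1 goes from 2310 CPM in Q1 to 29450 CPM in Q4 and Col1a1 from 3793 to 284 CPM.

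The genes furthest toward quartile 4 were Car3, Adrb3, Ifi27l2a, Gpat3, Gpd1, Adcy5, Cish, Lipe, Chchd10 and Tenm4. Car3 was at least 496-fold higher, set against a floor of 3 UMIs over quartile 1. Chchd10, a mitochondrial protein gene, went from 10.7 to 712 CPM and Lipe from 4.60 to 313 CPM. The genes furthest toward quartile 1 were Prc1, Myl9, Vgll3, Sfrp2, Gpr176, Gpm6b, Ptx3, Ube2c, Lurap1l and Avpr1a. The pentraxin gene Ptx3 went from 1331 to 24.4 CPM, and Prc1, which acts in cell division, from 238 to 1.74 CPM. Of these 20 genes all but Chchd10 and Ptx3 had 3 UMIs or fewer in 1 of the quartiles, so their ratios are loose. The mitochondrial share was higher from quartile to quartile, with medians of 7.86%, 9.53%, 12.5% and 16.2%, and its part in these differences was not tested.

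**Figure D5:**
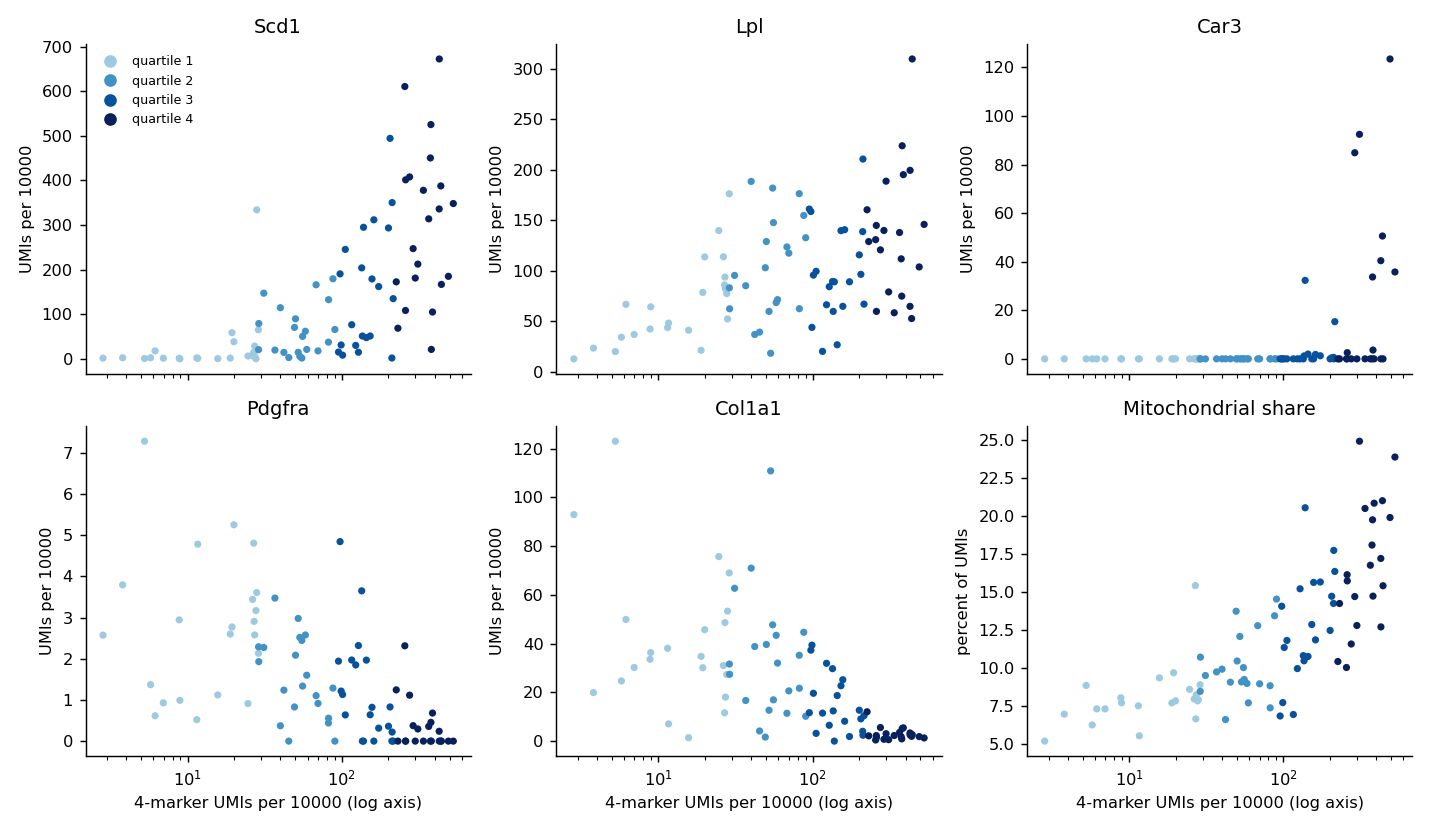
Scd1, Lpl, Car3, Pdgfra and Col1a1 (UMIs per 10000 UMIs of the cell) and the mitochondrial share (percent of UMIs) in each of the 85 members against the summed UMIs of the 4 rule genes per 10000, on a log axis. Colours mark the quartiles. Car3 is at 0 in every cell of quartiles 1 and 2, and the median mitochondrial share is 7.86% in quartile 1 and 16.2% in quartile 4.

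Single cells broke the order of the quartiles. One cell of quartile 1 held 334 Scd1 UMIs per 10000, where the median of that quartile was 2.42, and thus exceeded every comparison cell. Saa3, which encodes an acute-phase protein, stood at 1.53, 254, 204 and 76.6 CPM and was found in 19 members, with 28.3% of its UMIs in 1 cell of quartile 2. Its 131 CPM over all members stood against 1.59 CPM in comparison cells and 61.6 CPM in the cells with Ptprc. Agt (190, 402, 441 and 347 CPM) and Rbp4 (59.8, 141, 160 and 78.4 CPM) had their highest summed levels in quartile 3. The median of Agt per cell was 4.05 UMIs per 10000 in quartile 2 and 3.99 in quartile 3. Rbp4 had 79 and 99 UMIs in these quartiles, so no order was read between them.

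Whether members lie together was described from genes the rule did not use. Each cell's 20 nearest neighbours were taken in 30 principal components of 2000 variable genes, with the rule genes left out. On average 66.6% of a member's neighbours were members, where members were 0.301% of all cells. The mean was 18.4% in quartile 1, 61.4% in quartile 2, 90.5% in quartile 3 and 98.6% in quartile 4. Members made up at least 50% of the neighbours of 58 of the 85 members, of which 3 were in quartile 1 and 21 in quartile 4. Comparison cells had a mean of 0.0167%, cells with Adipoq alone 0.889% and cells with Plin1 alone 2.83%. Quartile 1 thus lay mostly among other cells, and quartile 4 almost wholly among members. Doublet scores, computed from simulated pairs of cells, had a median of 0.101 in members and 0.0809 in all cells. Of the 2396 cells with the highest scores, 6 were members (7.06% of the 85, 2.63 to 14.7), against 8.49% of all filtered cells. Of these 6, 5 were in quartile 1, or 22.7% of its 22 cells, and 1 in quartile 2. Quartile 4 had a highest score of 0.116.

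Cells at the edge of the rule were closer to the comparison cells than to members in the lipid genes. The cells with Adipoq alone (225) or Plin1 alone (258) that are used here and for the neighbours held none of Epcam, Ptprc and Pecam1. Cells with Adipoq alone stood at 243 CPM of Scd1 and 881 CPM of Lpl, and cells with Plin1 alone at 362 and 1508 CPM. Comparison cells with at least 6 Fabp4 UMIs, 3421 in number, stood at 148 and 782 CPM. In Pparg the 3 classes stood at 56.5, 88.2 and 66.0 CPM, against 22.0 CPM in the comparison cells with fewer Fabp4 UMIs and 256 CPM in quartile 1 of members. Cfd, at a thinned share of 43.5% of members (32.8 to 54.7), was found in 0.110% of comparison cells and in 0 of 296 cells with Ptprc, which allows up to 1.01% by 3 counts of the total and 1.24% by the exact interval.

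The same rule found 0 cells among the 29744 filtered iWAT cells (exact upper limit 0.0124%). Adipoq occurred in 34 and Plin1 in 42 iWAT cells, never in the same cell, with at most 4 UMIs of Adipoq and 1 of Plin1. Over all filtered cells iBAT held 6.93 CPM of Adipoq, 3.70 CPM of Cfd and 127 CPM of Fabp4, where iWAT held 0.0777, 0.00199 and 38.6 CPM. The iWAT library was shallower, and the 2 libraries also differed in sex-linked transcripts, with 345 CPM of Xist and 1.20 CPM of Ddx3y in iWAT against 0.0505 and 81.9 CPM in iBAT. Depot, library and the sex of the mice, which the labels do not give, cannot be told apart.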

How the data were processed

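Single-cell RNA was captured on a microwell system (BD Rhapsody) in 1 iWAT and 1 iBAT library. The authors deposited raw UMI counts per gene and cell, made on a commercial cloud pipeline. The submitters' processing notes name the build mm39 and Seurat 5.0.0. The aligner, the annotation and the treatment of reads that match several genes are not given in the sources used here.

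Cells with more than 200 and fewer than 7500 genes and under 30% mitochondrial UMIs were kept, as in the published methods. In iBAT 414 barcodes were removed for many genes and 7 for mitochondrial UMIs. Counts were summed per group in Python 3.11.15 with numpy 2.4.6, scipy 1.17.1 and pandas 2.3.3. Levels carry exact Poisson, shares Clopper-Pearson and ratios conditional binomial intervals, all at 95%. A zero was set to 3 UMIs over the group for a bound. Neighbours used scikit-learn 1.9.0, doublet scores Scrublet in scanpy 1.11.5, and promoter windows samtools 1.23.1 and pysam 0.24.0. No cell was removed as a doublet. The scripts were tested on simulated data.

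The members and the gene lists were chosen with earlier results of these data known. Named were the rule genes, some genes of each list, not always those with the largest ratios, and well-known genes near 0. Ucp1 and most FGF ligands and receptors were named whatever their values. The 10 highest and 10 lowest ratios between members and comparison cells (50 CPM in either) and between quartiles were named too. Saa3 and other genes named for how they varied among members were chosen after their values were seen. Of the 10 highest, 1 gene is not reported here. Alternatives used edgeR 4.0.16 (R 4.3.3) for TMM factors, other limits, other comparison cells and thinning.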

Additional observations from a re-analysis of the deposited data

How the results depend on the processing

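The count of genes at least 2-fold higher in members (416) stayed between 398 and 473 under TMM or median-of-ratios scaling, all other cells as the comparison, per-cell means, thinning, rule genes left out of the totals, a marker sum of at least 20, comparison cells without Epcam, Ptprc and Pecam1, and without the 8% of cells with the highest doublet scores. The count lower (353) stayed between 329 and 433. Both followed the limit on expression and on fold: a minimum of 10 CPM gave 840 and 864, a minimum of 200 CPM gave 162 and 114, and the counts were, with no filter, 12662 and 1849 and, at 4-fold, 186 and 51. Without quartile 1 of members they were 529 and 534. The number of members lay between 64 (after thinning) and 89 (no limit on genes), and iWAT gave 0 throughout. That 0 could not change, because no filtered iWAT cell held both Adipoq and Plin1 and each alternative required both. The share of members with a cycling UMI was 41.2% at 5000 UMIs per cell, 84.7% without thinning and 54.4% without the highest doublet scores. The medians of 27 gene lists, members over comparison cells, kept their sign under 8 alternatives. Of 226 genes past 2-fold in that contrast, from the lists and the extreme ratios, 221 to 226 stayed past it in the same direction. None of these genes reversed. TMM and median-of-ratios scaling shifted all log2 ratios by only -0.028 and -0.015, so they could reverse no list median and no gene past 2-fold. A marker sum of at least 20 and leaving out quartile 1 both removed members with few marker UMIs, so they too were weak checks. The quartile contrasts and the cells at the edge of the rule were not run under these alternatives. The alternatives with the 8% highest scores, the comparison cells without the 3 exclusion genes and quartile 1 left out were chosen after seeing the data. Doublets called by Scrublet could not be left out, because its automatic threshold called 0 of 28215 cells. No paired analysis was possible because each depot had 1 library. With 85 cells and 2405338 UMIs, the floor of 3 UMIs corresponds to 1.25 CPM in members, and levels below it rest on 2 UMIs or fewer.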

Other observations

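Lcn2, Lrg1, Wfdc21 and Saa3, which encode secreted proteins, are described here by quartile and were picked after their values were seen. Lcn2 and Saa3 belonged to the list of inflammatory genes, in which 7 of 12 genes were lower in members, and Lrg1 and Wfdc21 to no list. Lcn2, which binds bacterial siderophores, stood at 18.4, 33.8, 181 and 385 CPM from quartile 1 to quartile 4, and Lrg1 at 103, 267, 556 and 1029 CPM. Wfdc21 stood at 59.8, 155, 783 and 1174 CPM. The 3 genes were at 0.251 CPM (Lrg1), 0.126 CPM (Wfdc21) and 1.13 CPM (Lcn2) in the cells with Ptprc. Per cell, the median of Lrg1 was 3.61 UMIs per 10000 in quartile 3 and 3.21 in quartile 4, so its higher summed level in quartile 4 was not seen in the median cell. The summed level of Saa3 was lowest in quartile 1. In quartile 2, 1 cell held 89 of the 143 Saa3 UMIs, and 6 cells in each of quartiles 2, 3 and 4 held the gene, so no order was read among these.

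Antioxidant and glutathione genes were divided, with 4 of 20 at least 2-fold higher in members and 2 lower, and a median log2 ratio of 0.35. Catalase (Cat) stood at 285 against 50.7 CPM, 5.62-fold higher (5.20 to 6.06), and the mitochondrial superoxide dismutase Sod2 at 444 against 90.5 CPM. Both were highest in quartile 4, with 489 and 812 CPM.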
